A study of Homo sapiens with 63 samples.

Results

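The genes described here encode giant proteins, whose mRNAs carry some of the longest coding sequences of the cell. A list of 10 such genes was taken by name: AHNAK, ANK2, DYNC1H1, HUWE1, MYCBP2, PRKDC, HERC1, HERC2, KMT2D and MACF1. Of these, 9 had a row among the 11074 genes of the deposited table, and MYCBP2 was not analysed here. The cells were HEK293, an established line from human embryonic kidney. They were harvested in log phase in medium with serum, after 2 h without serum, or after 1 h without amino acids in a salt solution that still held vitamins and serum, and all were given cycloheximide, which holds ribosomes on mRNA, before lysis. Each lysate was separated on 1 polysome gradient, and poly(A) RNA of fractions 3 to 22 was sequenced, which gives 20 fractions in each of 3 conditions. With 1 gradient per condition no difference below has a replicate check, and no test between conditions was possible.

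A polysome gradient separates mRNAs by the mass of the particles they sit in, so that an mRNA with many ribosomes travels further than the same mRNA with few. Long coding sequences have room for many ribosomes, and the mRNA and its proteins also add mass of their own. Loss of amino acids or growth factors lowers signalling through mTOR, which represses initiation, most of all on mRNAs that start with a terminal oligopyrimidine (TOP) tract. Whether the heavy end has the low or the high numbers is not given in the labels, so positions are described by fraction number alone.

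The deposited signal is given by the authors' naming as TPM, but the columns sum over genes to between 36831 and 66981627, so each fraction carries a further factor. Within each column a common step was sought. It was the largest value of which at least 30% of values under 200 steps were whole multiples within 0.01 steps. Each of the 60 columns had such a step, with a share of 30.6% to 35.9% and a median of 33.4%. That the shares lie just above 30% follows from the rule. The values were read as estimated read numbers times a factor per fraction. This reading was not tested against gene length, and levels are not compared between genes. Taking the step as the worth of 1 read, the fractions held 2499187 to 13143770 reads with a median of 8203392. The 9 genes differed widely in the reads behind their profiles. In log phase AHNAK had 6644 reads, HERC2 3276, PRKDC 2750, HUWE1 2589 and DYNC1H1 1896, while MACF1 had 618, KMT2D 511, ANK2 351 and HERC1 294. The counting errors given below follow from these reads, cover counting only and leave out preparation of the fractions. Of the marker genes listed for HEK293, 8 of 10 had a row (PAX2 and EYA1 did not), with NEFL at 380 and LIN28B at 18.7 parts per 1000000 (ppm) of the log phase signal, and none of 7 markers of blood, liver, endothelial and connective tissue cells had one.

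The first transcribed bases decide whether an mRNA is of the TOP class, the class known for the strongest response to these starvations. An annotated start is therefore shown for each of AHNAK, DYNC1H1, HERC1, HERC2 and KMT2D. Further annotated starts are not shown, nor is any window of ANK2, HUWE1, PRKDC or MACF1. The AHNAK start shown, 62545826, lies inside the annotated gene, which ends at 62546806. Each window holds 15 bases before and 15 from the annotated start, read on the coding strand from RefSeq on GRCh38.p14, with the first 5 transcribed bases in capitals. EEF1A1 and EEF2, elongation factors of the TOP class, are given for comparison.
AHNAK, chr11:62545812-62545841, minus strand: gatggcccccgccccAGAGCctggcccggc
DYNC1H1, chr14:101964558-101964587, plus strand: gctcccgctctcctcAGTCTgcggtgggct
HERC1, chr15:63833934-63833963, minus strand: gccgccgcctcttacGTCTTtccctttgac
HERC2, chr15:28322165-28322194, minus strand: gtcggcccgcccctcGGGCCgcgagaggcg
KMT2D, chr12:49060780-49060809, minus strand: gggcgggatccctccGCCGCtccgctccaa
EEF1A1, chr6:73521018-73521047, minus strand: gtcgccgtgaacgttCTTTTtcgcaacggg
EEF2, chr19:3985449-3985478, minus strand: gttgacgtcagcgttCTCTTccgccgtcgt

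A start with C followed by 4 pyrimidines (C or T, on the coding strand only) was found in 0 of 21 annotated start windows of 8 of the giant genes. The same search found it in 1429 of 35116 windows of all genes (4.07%) and in 44 of 81 windows of ribosomal protein genes (54.3%). With a share of 4.07% over all genes, 0 of 21 does not set the giant genes apart from other genes. Annotated starts can be off by a few bases, so an absent match says only that these letters are not at the annotated position. EEF1A1 moved by -5.23 fractions relative to the median gene without serum and by -4.99 without amino acids, and EEF2 by -3.83 and -3.62. No giant gene moved by more than 1 fraction relative to the median gene in either starvation on the deposited scale. Whether the start sequence has a part in these movements was not tested.

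Among the scaffold and cytoskeletal genes, AHNAK encodes a very large scaffold under the plasma membrane that binds annexin A2 and S100A10. The gene lies on chromosome 11 at 62433544 to 62546806 (GRCh38.p14, as for the other genes). Its log phase signal ran from 1.18 (fraction 6) over a median of 601 to 2154 (fraction 16). Without serum it ran from 4.77 over 227 to 746, and without amino acids from 3.17 over 280 to 1039. AHNAK was spread most broadly towards the lower numbers: fractions 8 to 12 held 19.3% of its signal in log phase, 34.4% in serum starved and 39.8% in amino acid starved cells. The total over all genes rose in these fractions too: fraction 9 held 4.22% of it in log phase, then 16.4% and 16.3%. The highest fraction of AHNAK went from 16 to 17 and then to 12 in these 3 gradients.

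ANK2 (chromosome 4, 112705622 to 113383736) encodes ankyrin-B, which ties membrane proteins to the spectrin skeleton. Its log phase signal ran from 0.0442 over a median of 14.9 to 173, without serum from 0.471 over 9.45 to 49.4, and without amino acids from 0 over 9.85 to 48.7. ANK2 was the gene placed most towards the high numbers in log phase, with a peak in fraction 21 and 67.8% of its signal in fractions 18 to 22. That share was 54.4% without serum, where the peak was again in fraction 21, and 43.2% without amino acids, with the peak in fraction 19. The total over all genes fell in these fractions too: fraction 18 held 17.1% of it in log phase, then 8.04% and 4.30%.

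MACF1 (chromosome 1, 39084167 to 39487138) encodes a linker of actin filaments and microtubules. Its signal ran in log phase from 0.435 over 19.4 to 347, without serum from 0.647 over 12.5 to 95.1, and without amino acids from 1.85 over 11.9 to 101. Its profile in log phase had a peak in fraction 16, a dip at 17 and a rise to fraction 19, where the signal was 347, 134 and 333. DYNC1H1 (chromosome 14, 101964573 to 102056443) encodes the heavy chain of cytoplasmic dynein, the motor that carries cargo to microtubule minus ends. Its log phase signal ran from 0.869 over 47.9 to 970, without serum from 5.99 over 36.8 to 273, and without amino acids from 6.08 over 39.5 to 230. Fractions 18 to 22 held 62.7% of the DYNC1H1 signal in growing cells, 50.1% in serum starved cells and 28.9% in amino acid starved cells. As for ANK2, this is to be read beside the total over all genes, of which fraction 18 held 17.1%, 8.04% and 4.30%.

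The ubiquitin ligases HUWE1, HERC1 and HERC2 all carry the catalytic HECT domain, through which ubiquitin passes to the substrate. HUWE1 (chromosome X, 53532096 to 53686719) had a log phase signal from 1.64 over a median of 82.1 to 1217, without serum from 5.23 over 50.8 to 272, and without amino acids from 6.64 over 54.6 to 317. HERC1 (chromosome 15, 63608618 to 63833948) was thinly covered, from 0 over 9.00 to 176 in log phase, from 0 over 4.99 to 38.1 without serum and from 0 over 5.42 to 28.5 without amino acids. HERC2 (chromosome 15, 28111040 to 28322179), a ligase of the DNA damage response, ran from 1.08 over 303 to 1352, from 5.00 over 108 to 226, and from 4.97 over 103 to 285 in the same order. The 3 ligases did not share a profile. HUWE1 held 4.47% of its log phase signal in fractions 8 to 12 and HERC1 4.77%, but HERC2 held 14.3%. HERC2 has partial near-copies in the genome that the quantification could mix with it, so its values are uncertain.

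The nuclear enzymes were PRKDC and KMT2D. KMT2D (chromosome 12, 49018978 to 49060794), a histone methyltransferase of enhancers, ran in log phase from 0.232 over a median of 10.1 to 301, without serum from 0 over 4.57 to 74.7, and without amino acids from 0 over 3.63 to 79.4. A single fraction held much of the starved KMT2D signal: fraction 17 had 29.8% of it without serum and 34.8% without amino acids, against a largest share of 24.0% in log phase (fraction 16). PRKDC (chromosome 8, 47773111 to 47960136) encodes the catalytic subunit of DNA-PK, the kinase of DNA end joining. Its log phase signal ran from 1.64 over 87.7 to 1259, without serum from 5.07 over 71.8 to 274, and without amino acids from 5.46 over 64.1 to 313. The PRKDC peak moved from fraction 19 in log phase to 16 in serum starved and 15 in amino acid starved cells.

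**Figure D1:**
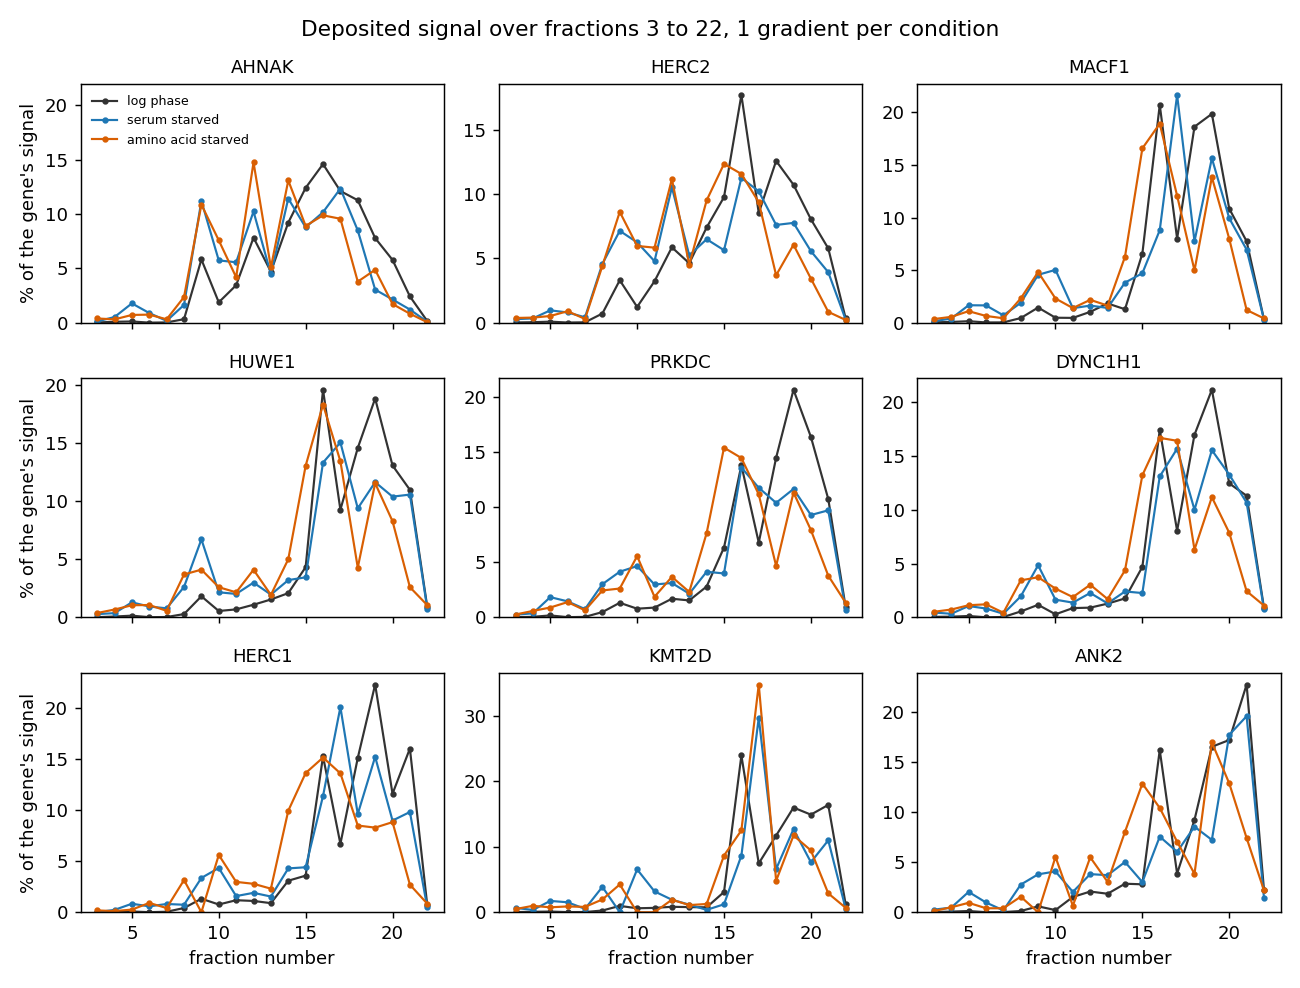
Each panel plots 1 gene, with the fraction number on the x axis and the percentage of the gene's deposited signal in that fraction on the y axis (scales differ between panels); lines are the log phase, serum starved and amino acid starved gradients, 1 each. The log phase lines of HUWE1, MACF1, DYNC1H1, PRKDC, HERC1, KMT2D and ANK2 stay low up to fraction 14, whereas AHNAK and HERC2 have 19.3% and 14.3% of their signal in fractions 8 to 12.

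Position was summarised as the mean fraction number weighted by signal. In log phase it was 15.43 for AHNAK and 16.13 for HERC2, and then 17.48 for MACF1, 17.64 for HUWE1, 17.73 for PRKDC, 17.79 for DYNC1H1, 17.93 for HERC1, 17.99 for KMT2D and 18.28 for ANK2. The counting error (SE) of these positions was 0.043 for AHNAK, 0.059 for DYNC1H1 and 0.16 for ANK2. Neighbours in that order from HUWE1 to KMT2D were no further apart than the counting error of the thinly covered HERC1 (0.15), and the order of neighbours was uncertain. The ends of this run, HUWE1 at 17.64 and KMT2D at 17.99, lay further apart than their own errors of 0.053 and 0.12. AHNAK and HERC2 lay apart from the other 7 by more than 1 fraction. The median of the 9 was 17.73, against 16.94 for the 10889 genes that passed the filter in all gradients, a difference of 0.78 fractions. The other giant proteins came from a list taken by name, such as UBR4, DST and MDN1, with no check of protein length. For 63 of them the median was 17.41 or 0.47 above all genes. This direction depended on the scale of the fractions. With every fraction set to the same total the log phase median of the 9 was 13.34, which is 0.88 below that of all genes (14.22), and without fractions 3 to 7 on that scale it was 1.62 above.

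Without serum the positions ran from 13.76 (AHNAK) and 14.38 (HERC2) to 16.73 (DYNC1H1), with a median of 16.10 against 15.62 for all genes. Without amino acids they ran from 13.45 (AHNAK) and 13.77 (HERC2) to 16.33 (ANK2), with a median of 15.50 against 15.12. AHNAK and HERC2 were thus the lowest-numbered of the 9 in each gradient on the deposited scale; with equal fraction totals MACF1 (12.64) lay below HERC2 (12.71) in log phase. With equal fraction totals the medians were 16.61 without serum and 16.66 without amino acids, 0.69 and 0.64 above all genes. Profiles also became broader on starvation. The weighted SD of the fraction number had a median of 2.67 fractions over the 9 genes in log phase, 4.07 in serum starved and 3.60 in amino acid starved cells, and all 9 were broader in both starved gradients than in log phase. That was not particular to them, since 98.5% of all tested genes were broader without serum and 95.4% without amino acids.

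**Figure D2:**
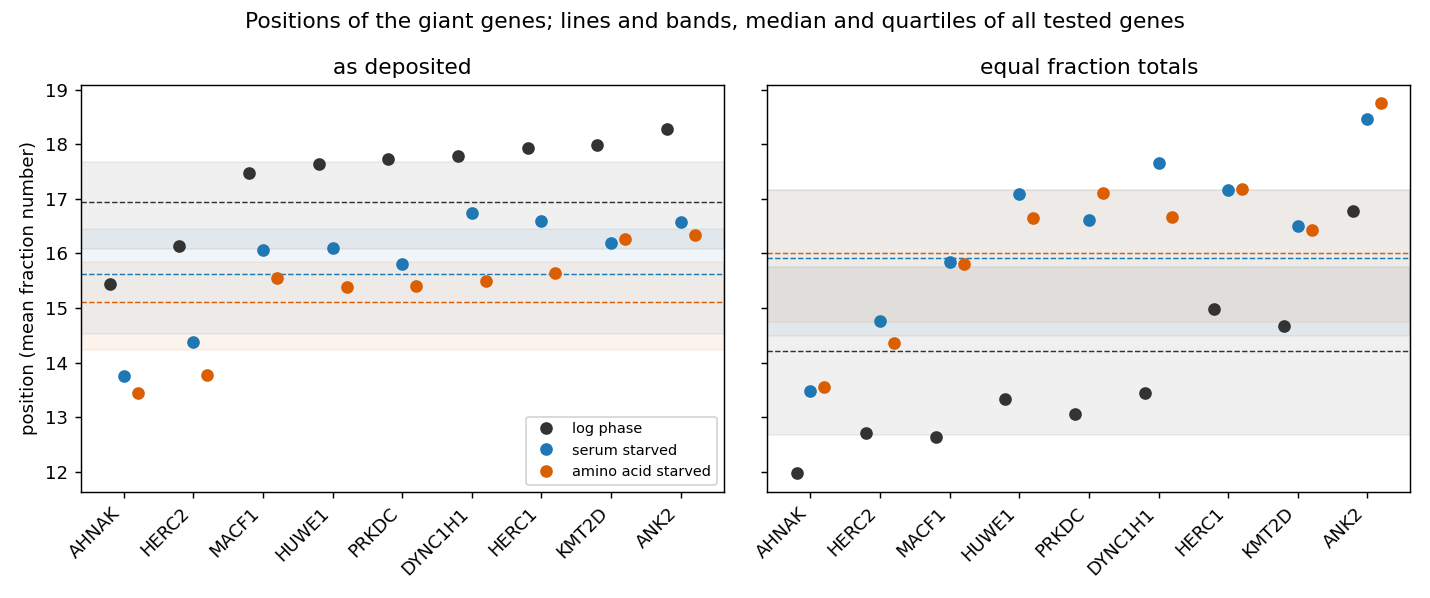
Positions (mean fraction number) of the 9 genes in the log phase, serum starved and amino acid starved gradients, from the deposited signal on the left and with equal fraction totals on the right; dashed lines and bands are the medians and quartiles of the 10889 tested genes. On the left every gene lies lower in both starved gradients than in log phase, from 17.73 to 16.10 and 15.50 in the median; on the right the order is the opposite, from 13.34 to 16.61 and 16.66.

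The scale of the fractions drops out when abundance is read within a fraction, in ppm of that fraction's signal. For DYNC1H1 in log phase the mean was 17.6 ppm in fractions 3 to 7, 3.94 in 8 to 12, 7.59 in 13 to 17 and 20.0 in 18 to 22. HUWE1 had the same shape, with 24.7, 5.52, 11.4 and 26.1 ppm. PRKDC had 27.9, 6.99, 10.4 and 27.3. These genes made up a larger part of the mRNA at both ends of the gradient than in fractions 8 to 12. AHNAK did not, at 35.4, 50.1, 51.0 and 21.0 ppm, and neither did HERC2, at 18.7, 20.8, 23.5 and 17.5.

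Over the 9 genes, abundance in fractions 18 to 22 was 4.17 times that in fractions 8 to 12 in the median in log phase, and 7 of 9 were higher there. Among all tested genes the median was 1.96 and 7521 of 10889 were higher, and for the 63 other giant proteins it was 4.02, with 59 higher. The lower ones were AHNAK at 0.42 and HERC2 at 0.84, and the highest were ANK2 at 8.45, KMT2D at 6.74 and DYNC1H1 at 5.08. Without serum the median ratio was 7.07 (all genes 3.25, other giant proteins 7.62), and without amino acids it was 10.1 (4.39 and 8.40). In both starved gradients 8 of 9 were higher in fractions 18 to 22, and AHNAK was lower at 0.74 and 0.91. These counts are close to the share among all tested genes, of which 9054 of 10889 were higher without serum and 9662 without amino acids. Ratios of the thinly covered genes rest on few reads. KMT2D without amino acids reached 19.6 from 8.5 reads in fractions 8 to 12 and 133 in 18 to 22, ANK2 reached 24.1 from 19 and 354 reads, and HERC1 reached 10.1 from 14 and 115.

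The abundance in fractions 3 to 7 was 3.99 times that in fractions 8 to 12 over the 9 genes in log phase, against 0.993 for all genes and 2.72 for the other giant proteins. It was 1.92 without serum (all genes 0.597) and 2.49 without amino acids (0.775). In each gradient 7 of 9 genes were higher in fractions 3 to 7, and AHNAK and HERC2 were lower. In log phase 5389 of 10889 genes were higher there, without serum 1468 and without amino acids 2973. These fractions carried little of the deposited signal, from 0.15% (HERC1) to 0.36% (PRKDC) of a gene's total in log phase, but were sequenced as libraries of their own: DYNC1H1 had 533 reads in them and PRKDC 816. They therefore weigh little in positions from the deposited signal and much in positions from equal fraction totals.

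**Figure D3:**
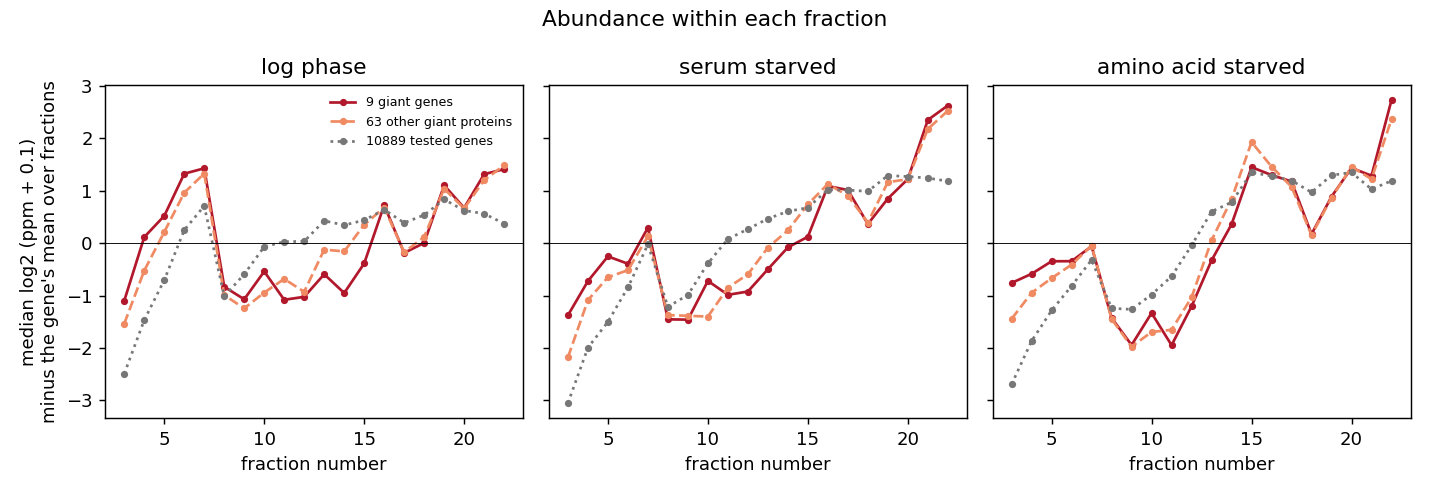
Median log2 abundance within each fraction (ppm of the fraction plus 0.1), minus the gene's own mean over fractions, against fraction number, for the 9 giant genes, 63 other giant proteins and 10889 tested genes in each gradient. In log phase the 9 genes are at 1.43 in fraction 7, at -1.07 in fraction 9 and at 1.41 in fraction 22, and the other giant proteins are at 1.49 there; in fractions 14 and 15 the 9 genes lie lower, at -0.95 and -0.39 against -0.16 and 0.35.

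Some steps between neighbouring fractions were shared among the genes. From fraction 16 to 17 in log phase all 9 fell within the fraction, by a median of -0.90 on the log2 scale, against -0.24 for all tested genes, of which 7536 of 10889 fell. From 18 to 19 all 9 rose, by 1.04 against 0.23 for all tested genes, of which 7254 of 10889 rose. The other giant proteins had steps of -0.82 and 0.92. Without amino acids all 9 fell from fraction 17 to 18, by -0.88, and 61 of 63 other giant proteins fell with them, against a median of -0.18 for all tested genes, of which 6993 of 10889 fell. The rise from 14 to 15 in that gradient, by 1.22 in 8 of 9, was shared by 9674 of 10889 tested genes, with a median of 0.58. Without serum 8 of 9 fell from 17 to 18, by -0.62, and 5662 of 10889 tested genes fell, with a median of -0.025. The rise from 15 to 16 that precedes the log phase dip was not common to all: 7 of 9 rose, as did 7638 of 10889 tested genes. AHNAK went from 60.6 to 39.1 ppm and HERC2 from 24.7 to 24.5 ppm. Whether preparation of single libraries had a part in these steps was not tested.

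Starvation moved the positions of all 9 genes to lower-numbered fractions on the deposited scale, with a median of -1.67 fractions without serum and -2.26 without amino acids. Nearly all genes did the same: 10711 of 10922 without serum and 10885 of 10976 without amino acids, with medians of -1.35 and -1.80. A shift is therefore given relative to the median gene. A shift was counted when it reached 1 fraction, and 0.5 in the same direction in the odd and in the even fractions taken alone, a rule of size and not a test.

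Without serum, 0 of 9 giant genes passed that rule in either direction, where 5.71% of all tested genes passed towards higher and 9.87% towards lower numbers. The median shift was -0.32, from -0.57 (PRKDC) to 0.30 (DYNC1H1). Without fraction 19 the median was -0.094, with spike-in scaling -0.15 and with positions from log2 signal -0.093. The counting error of the shift was 0.11 for PRKDC and 0.12 for DYNC1H1, against 0.33 for ANK2 and HERC1, 0.28 for KMT2D and 0.24 for MACF1. The odd and even fractions gave -0.61 and -0.56 for PRKDC but -0.12 and 0.64 for DYNC1H1, so that the direction of DYNC1H1 was not fixed within the gradient. The remaining shifts were -0.45 for KMT2D, -0.40 for HERC2, -0.37 for ANK2, -0.32 for AHNAK, -0.20 for HUWE1, -0.074 for MACF1 and 0.016 for HERC1.

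Without amino acids, again 0 of 9 passed, with 6.86% of all genes passing towards higher and 9.58% towards lower numbers. The median shift was -0.46, and 8 of 9 were below 0, from -0.55 (HERC2), -0.53 (PRKDC), -0.48 (DYNC1H1 and HERC1) and -0.46 (HUWE1) to -0.18 (AHNAK), -0.15 (ANK2) and -0.13 (MACF1). The median was -0.25 without fraction 21, -0.079 in even fractions and -0.11 with positions from log2 signal. KMT2D was at 0.068, with -0.84 in odd and 0.80 in even fractions. The counting error was 0.27 for ANK2 and 0.20 for MACF1, larger than the size of their shifts. It was 0.30 for HERC1 and 0.066 for AHNAK. With spike-in scaling AHNAK was at 0.094. Of the 9, AHNAK, DYNC1H1, HUWE1, PRKDC and HERC2 lay below 0 in the odd and in the even fractions alike.

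**Figure D4:**
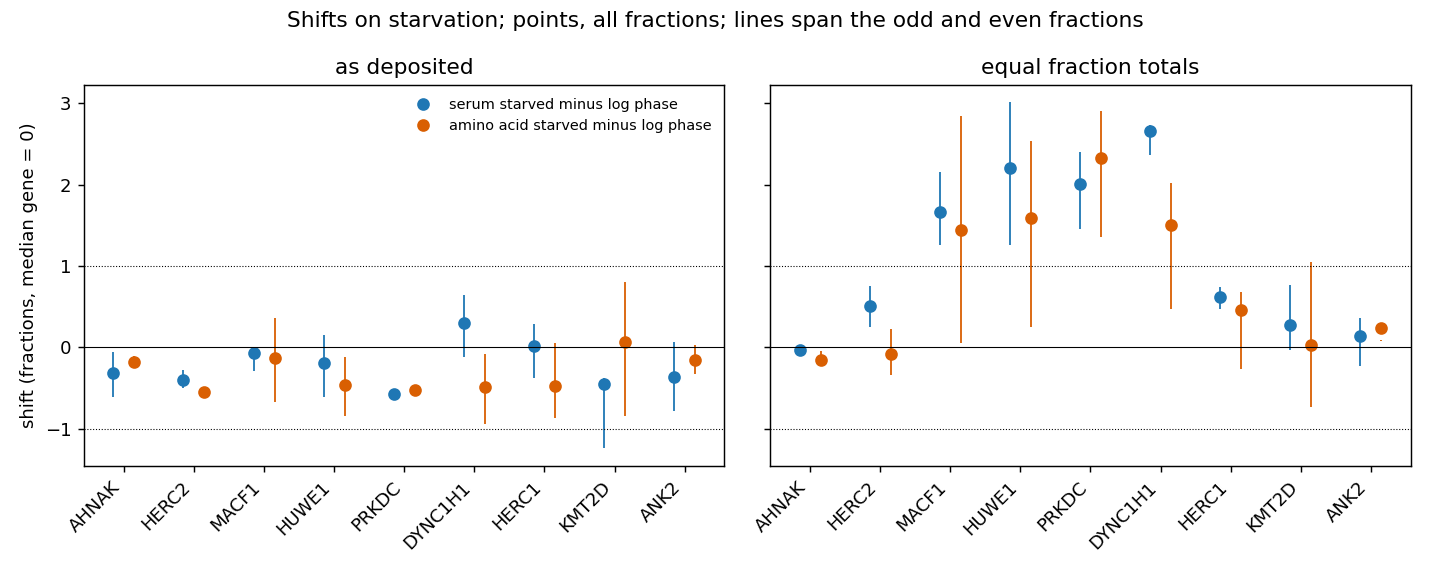
Shift of each of the 9 genes relative to the median gene, in fractions, for serum starved and amino acid starved against log phase, from the deposited signal on the left and with equal fraction totals on the right; points use all fractions and vertical lines run between the values from odd and from even fractions, with dotted lines at the size of 1. On the left all points lie between -0.57 and 0.30; on the right DYNC1H1, HUWE1, PRKDC and MACF1 without serum lie between 1.66 and 2.67.

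With every fraction set to the same total the picture differed. Without serum 4 of 9 passed towards higher numbers, DYNC1H1 at 2.67, HUWE1 at 2.20, PRKDC at 2.01 and MACF1 at 1.66, with counting errors of 0.20, 0.19, 0.18 and 0.38, where 12.1% of all genes passed in that direction. Without amino acids PRKDC passed, at 2.33 with a counting error of 0.17, where 13.0% of all genes passed. HUWE1 at 1.59, DYNC1H1 at 1.50 and MACF1 at 1.44 reached the size but not the rule, since their odd fractions gave 0.25, 0.47 and 0.050. AHNAK stayed near the median gene in both starvations on this scale, at -0.032 and -0.15. The other giant proteins passed towards higher numbers in 35 of 63 without serum and 12 of 65 without amino acids. When fractions 3 to 7 were left out on this scale, 0 of 9 passed in either starvation. The count of 4 was thus not kept without those fractions. There the abundance of DYNC1H1 went from 17.6 ppm in log phase to 5.93 without serum and 6.42 without amino acids. HUWE1 went from 24.7 to 7.98 and 7.70. Genes that did not pass also fell there without serum, HERC2 from 18.7 to 6.40 ppm and KMT2D from 3.99 to 1.28 ppm. The fall was not particular to giant genes. Relative to each gene's own mean over fractions, the log2 median of all tested genes in fraction 7 went from 0.71 to -0.024 without serum. It was -0.32 without amino acids. The 9 genes went from 1.43 to 0.30 and -0.060. Why some genes passed and others did not was not tested.

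The starved gradients were also set against each other, although the starvations lasted 2 h and 1 h. Amino acid minus serum starved shifts centred on -0.038 in the median, and 0 of 9 passed, where 2.01% of all genes passed towards higher and 1.06% towards lower numbers. DYNC1H1 was the lowest at -0.76, with a counting error of 0.15 and -0.85 and -0.70 in odd and even fractions. With equal fraction totals it passed the rule at -1.12, with odd and even fractions at -1.85 and -0.68, where 2.94% of all genes passed. Its signal in fractions 15 and 20 was 39.5 and 231 without serum, and 182 and 109 without amino acids. PRKDC changed in the same directions there, from 80.5 and 187 to 313 and 161, with a shift of 0.060 on the deposited scale. KMT2D was the highest at 0.54, with -0.48 and 2.07 in odd and even fractions.

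Levels compare whole gradients: the 20 fractions of each gene were added up and given in ppm of the gradient's total, so a level follows where the total lies as well as the gene's amount. A level relative to the total gives no amount of RNA per cell, and in bulk lysates a change in some cells and in all cells cannot be told apart. AHNAK had the steadiest level before centring, 37.8 in growing cells, 37.0 in serum starved and 38.4 in amino acid starved cells. HERC2 went from 19.6 to 12.3 and 12.6, HUWE1 from 15.9 to 11.1 and 9.44, PRKDC from 15.6 to 12.4 and 11.1, and DYNC1H1 from 11.8 to 10.7 and 7.55. All genes together moved by a median of -0.43 and -0.59 on the log2 scale (pseudocount 1), and ratios are given relative to that. AHNAK was then at 0.40 and 0.61, DYNC1H1 at 0.30 and 0.011, PRKDC at 0.12 and 0.13, HUWE1 at -0.056 and -0.11 and HERC2 at -0.20 and -0.0100. None of these 5 reached a size of 1, and the other 4 lay under the minimum level of 5. Of all genes tested, 3.06% rose and 0.903% fell past the size rule without serum, and 4.96% rose and 2.84% fell without amino acids.

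The partners of the giant proteins were read from lists of their families and complexes, with the deposited scale and the same rule. Of all tested genes, 5.71% passed towards higher and 9.87% towards lower numbers without serum, and 6.86% and 9.58% without amino acids. The counts below are to be read beside these shares. Several lists hold giant genes already described. DYNC1H1 is on the dynein list, KMT2D on the COMPASS list, ANK2 and MACF1 on the cytolinker list and AHNAK on its own. Of 22 HECT ligases tested, which include HUWE1, HERC1 and HERC2, 1 passed towards lower numbers without serum (ITCH at -1.56) and 2 without amino acids (ITCH at -1.30 and HERC4 at -1.26), with medians of 0.0043 and -0.29. Of 23 dynein and dynactin genes, DCTN6 passed towards higher numbers in both (1.03 and 1.66) and DCTN2 towards lower numbers in both (-1.39 and -1.92), both subunits of dynactin, the activator of dynein. Of 13 end joining and PI3K-like kinase genes, which include PRKDC, LIG4 (-1.71) and NHEJ1 passed towards lower numbers without serum and NHEJ1 (-1.54) without amino acids. LIG4 is the ligase and NHEJ1 a factor of end joining. XRCC6, a subunit of the Ku partner of PRKDC, was at 0.65 without serum, but with equal fraction totals it passed towards lower numbers in both starvations.

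Of 18 COMPASS genes, HCFC2 passed towards lower numbers without serum (-1.85) and NCOA6 without amino acids (-1.05); the highest were KMT2A at 0.64 and CXXC1 at 0.89. Of 13 spectrin, ankyrin and cytolinker genes, none passed without amino acids, where UTRN was lowest at -0.83. Of 3 AHNAK list genes none passed: ANXA2 was at 0.34 without serum and at -0.25 without amino acids, and S100A10 at 0.50 without amino acids. Of 4 genes tested from the MYCBP2 partner list, SKP1, which joins the ligase complex, passed towards higher numbers in both, at 1.29 and 1.55. On the list of other giant proteins, 2 of 63 passed towards higher numbers without serum, FLNA and TLN1 (1.50). HERC4 was the 1 of 65 on it that passed towards lower numbers without amino acids. The list was taken by name and protein lengths were not used, so HERC4 is not shown to be giant. Median shifts of the list were 0.042 and -0.37.

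Counts in these lists changed with equal fraction totals, where 12.1% of all genes passed towards higher and 13.1% towards lower numbers without serum, and 13.0% and 15.9% without amino acids. Without serum 3 HECT ligases passed higher, HUWE1 among them, and 1 lower (SMURF1), and without amino acids 1 and 3, with ITCH in neither. Dynein and dynactin genes gave 3 higher, DYNC1H1 among them, and 6 lower without serum. Without amino acids they gave 2 and 7. In both, DCTN6 was again among the higher and DCTN2 among the lower. End joining and PI3K-like kinase genes gave 4 and 3 without serum and 3 and 3 without amino acids. PRKDC was higher and XRCC5, XRCC6 and NHEJ1 lower in both. COMPASS genes gave 2 and 2, then 1 and 3. The cytolinker list gave 2 and 2 without amino acids. ANXA2 passed towards lower numbers in both starvations, and from the MYCBP2 partner list MYC passed towards higher numbers in place of SKP1.

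Profiles were compared as log2 abundance within the fraction over all 60 columns, which share libraries and depth, so that correlations describe likeness only. DYNC1H1 and HUWE1 were the closest pair of the 9, with a Pearson r of 0.959, and PRKDC was next to HUWE1 at 0.955. Without AHNAK and HERC2 the other 7 genes gave 21 pairs with r from 0.650 to 0.959 and a median of 0.849. AHNAK had its nearest gene in HERC2 at 0.614 and a median r of 0.029 with the others. HERC2 was nearest to HERC1, at 0.625. Outside the list, the genes most like the mean profile of the 9 were TRRAP (0.963), PRRC2C (0.954), EP400 (0.953), GCN1 (0.950) and MTOR (0.947). TRRAP is a scaffold of histone acetyltransferase complexes, EP400 a chromatin remodeller, GCN1 an activator of the amino acid sensing kinase GCN2 and MTOR the kinase of the mTOR complexes. TRRAP, EP400 and MTOR are on the list of other giant proteins. That list was taken by name, so the absence of PRRC2C and GCN1 from it says nothing of their length.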

How the data were processed

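Poly(A) RNA of 60 gradient fractions of HEK293 lysates was sequenced as stranded libraries. The processing notes of the submitters name kallisto 0.44.0 and sleuth 0.29.0 and the build hg38, with no role or order. The deposited signal is 1 value per gene symbol and fraction; nothing read here states the factor per fraction or the filter on genes. Because values kept a common step per column, they were read as estimated reads times a factor, and counting errors were computed from that step. The 29 ERCC rows and 1 luciferase row were left out of the genes. The 3 lysates were not used here.

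Samples were grouped by condition and fraction from their titles, and no value column stayed unmapped. Positions and shifts were computed with Python 3.11.15, numpy 2.4.6 and pandas 2.3.3, drawn with matplotlib 3.10.9, and tested on simulated data. For a gene to be tested, its signal had to average at least 5 in both gradients compared and exceed 0 in 15 of 20 fractions; all 9 giant genes passed. Levels needed 5 parts per 1000000 in either gradient. The members and lists were chosen with earlier results of these data known. All giant genes were named; from each list, those past the size rule or the highest and lowest shift; and the 5 genes with the likest profile and a mean signal of 10 or more. EEF1A1, EEF2, the fractions quoted and further genes were picked after their values were seen. The serum result of the spectrin, ankyrin and cytolinker list is not reported here. Alternatives were equal fraction totals, spike-in scaling, log2 weights, fractions left out, no filter, the median fraction, no centring, binned centring and another pseudocount.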

Additional observations from a re-analysis of the deposited data

How the results depend on the processing

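Each alternative changed 1 choice, except equal totals without fractions 3 to 7, which changed 2. The log phase position of the 9 genes against all genes (0.78 fractions) went to -0.88 with equal fraction totals, to -0.061 with positions from log2 signal and to 1.62 with equal totals without fractions 3 to 7; the other alternatives gave 0.42 to 1.01. The median shift without serum (-0.32) went to 0.62 with equal totals, to -0.057 in even fractions, to -1.67 without centring to 0.20 with equal totals without fractions 3 to 7, to -0.15 with spike-in scaling and to -0.093 with log2 signal. Leaving out 1 fraction gave -0.41 to -0.094 (without fraction 19) without serum and -0.64 to -0.25 (without fraction 21) without amino acids. The median shift without amino acids (-0.46) went to 0.46 with equal totals, -2.26 without centring, -0.079 in even fractions, -0.11 with log2 signal and -0.25 with equal totals without fractions 3 to 7. The difference between the starvations (-0.038) went to -0.29 with spike-in scaling, -0.36 in odd fractions, -0.51 without centring and -0.49 with equal totals without fractions 3 to 7. Median level ratios over all 9 genes, 4 of them under the minimum level, went without serum from -0.051 to -0.48 without centring, 0.050 with equal totals 0.054 in odd fractions and 0.12 over the 5 genes above the minimum, and without amino acids from 0.014 to -0.57 without centring, 0.093 in even fractions and -0.11 with all genes used for centring. The counts past the size rule, 0 in both starvations, became 4 and 1 under equal totals, and 9 in each starvation without centring, which keeps the movement of all genes. For single genes, the distance of each alternative value from the main value was set against the spread between odd and even fractions. By that measure 61 of 90 values stayed and 29 moved. A value that stayed can lie outside the odd and even values themselves. AHNAK without serum stayed at -0.032 with equal totals, with -0.62 in odd and -0.057 in even fractions. The causes were not tested. Leaving out HERC2, leaving out AHNAK and HERC2, equal totals without fractions 3 to 7 and level medians over 5 genes were chosen after seeing the data. Classes of protein length were not run, since protein lengths were not used here. No paired analysis was possible because each condition had 1 gradient. Depth limits HERC1, ANK2, KMT2D and MACF1 most, with 225 to 618 reads over a gradient.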
